A study of Bos taurus with 9 samples.

Results

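The 6 genes described here are *CYTB*, *COX1*, *COX2*, *COX3*, *ATP6* and *ATP8*, the subunits of respiratory complexes III, IV and V that the mitochondrial genome encodes. They were chosen by symbol and by no rule on their values, though with earlier results of these data known. They make up 6 of the 28786 genes counted. Liver biopsies of 9 lactating Holstein cows were sequenced as poly-A enriched RNA. The cows formed 3 groups of 3: thermoneutrality (TN), heat stress (HS), and pair-fed (PF), kept at thermoneutrality and given the feed intake of the HS cows. Each library came from a separate cow. HS against TN compares heat together with the lower intake, PF against TN the lower intake alone, and HS against PF heat at matched intake.

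The respiratory chain of the inner mitochondrial membrane passes electrons from nutrients to oxygen, and the proton gradient that it builds drives ATP synthesis. Complex III (cytochrome bc1) hands electrons to cytochrome c, complex IV (cytochrome c oxidase) passes them to oxygen, and complex V (ATP synthase) makes ATP. Most subunits of these complexes are encoded in the nucleus, whereas a few hydrophobic core subunits are encoded by the mitochondrial genome. That genome is transcribed as long precursors, from which the mRNAs are cut and then polyadenylated and degraded separately. The liver holds many mitochondria and uses them for fatty acid oxidation, gluconeogenesis and the urea cycle.

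By the RefSeq table of assembly ARS-UCD2.0, a later build than the ARS-UCD1.2 of the counts, *COX1*, *COX2*, *ATP8*, *ATP6* and *COX3* follow each other in this order, and *CYTB* follows *ND6*. There *ATP8* overlaps *ATP6*, and *ATP6* also overlaps *COX3*. *ATP8* and *ATP6* share 1 mRNA, so the counts on *ATP8* depend on how reads in the overlap were assigned, and they are uncertain for this reason. Reads from copies of mitochondrial DNA in the nuclear genome cannot be told apart from mitochondrial reads in these counts. No gene lengths of the build of the counts were used here. Counts on different genes, and the ratios of them, are therefore not relative amounts of RNA. Such ratios are compared between cows only.

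The libraries held from 16874444 to 22557047 counts. TN replicate 1 stood apart: the 8 hepatocyte markers, with albumin (*ALB*) among them, summed to 15705 CPM (counts scaled to a common library size) in this cow, and to between 54960 and 111458 CPM in the other 8 cows. It was the lowest of the 9 cows for 5 of the 8 markers, *ALB*, *TTR*, *SERPINA1*, *FGB* and *CPS1*, but not for *APOA1*, *APOB* or *ASGR1*. The summed hepatocyte markers did not overlap between PF (77973 to 107918 CPM) and TN (15705 to 67001 CPM), and overlapped between HS and TN. Of the 5 skeletal muscle markers, *ACTA1* and *MYH7* had 0 counts in all 9 cows, and the list summed to at most 0.296 CPM in any cow. The values below are CPM normalized by the trimmed mean of M-values (TMM) over the 9 libraries.

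Each of the 6 genes had its highest group mean in TN and its lowest in HS, and every TN cow lay above every PF and every HS cow for each gene. *COX1*, the catalytic core of complex IV, differed most, with a fitted level 5.14-fold lower in HS than in TN. None of the 6 genes passed the threshold for differential expression by edgeR in any of the 3 comparisons. DESeq2 called 6 of them lower in HS against TN, 3 in PF against TN and 1 in HS against PF. It called 0.889%, 0.347% and 0.31% of all genes lower in these comparisons. Between HS and PF, *COX1* and *CYTB* were the genes whose cows did not overlap.

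**Figure D1:**
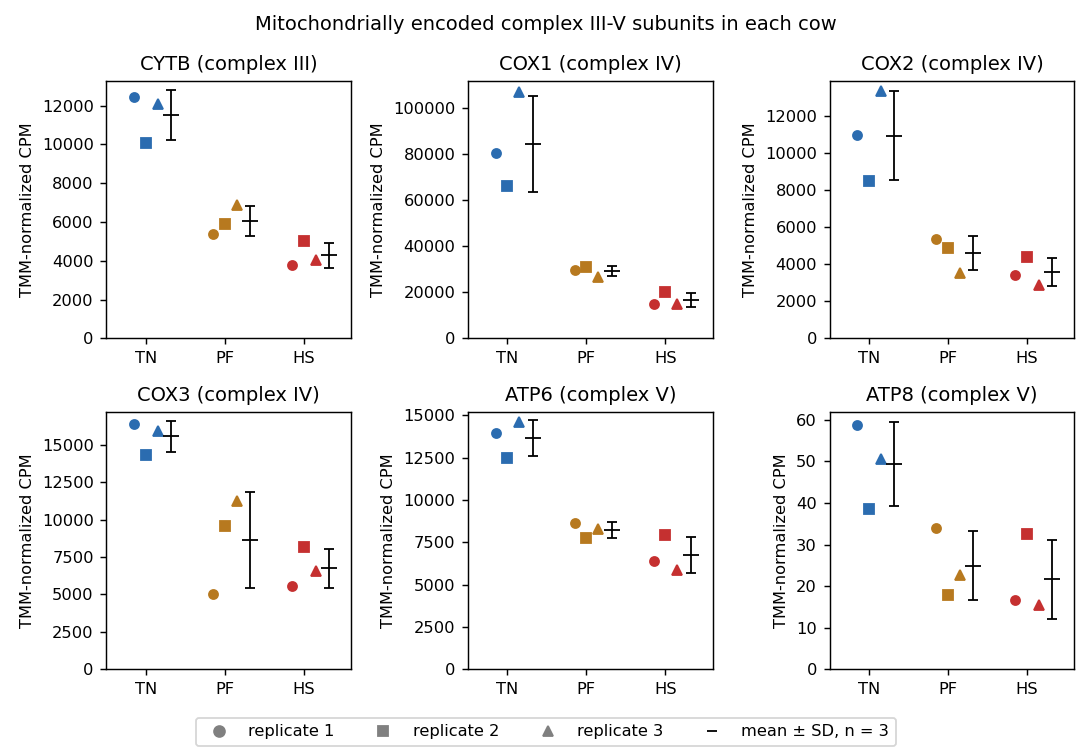
TMM-normalized CPM (vertical axes, linear, from 0) of the 6 genes in each of the 9 cows by group (horizontal axes). Symbols mark the replicates, and black bars the mean ± SD of 3 cows. All TN cows lie above the PF and HS cows in each panel, and the HS and PF cows overlap in 4 panels, *COX2*, *COX3*, *ATP6* and *ATP8*.

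*CYTB*, cytochrome b, is the core subunit of complex III at which ubiquinol is oxidized. It had 12418, 10051 and 12094 CPM in TN cows 1 to 3, 5358, 5890 and 6888 CPM in PF cows, and 3778, 5013 and 4047 CPM in HS cows. The 3 groups did not overlap. The mean was 11521 ± 1283 CPM in TN, 6045 ± 776 CPM in PF and 4279 ± 649 CPM in HS (SD, n = 3 each). The log2 fold change was -1.45 in HS against TN (SE 0.50, 95% interval -2.56 to -0.33, FDR 0.458, edgeR), -0.93 in PF against TN (SE 0.38, 95% interval -1.78 to -0.09, FDR 0.708, edgeR) and -0.50 in HS against PF (SE 0.31, 95% interval -1.18 to 0.18, FDR 1.00, edgeR).

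*COX1* holds the heme and copper center at which complex IV reduces oxygen. It had 80301, 66166 and 107084 CPM in TN cows 1 to 3, 29782, 30847 and 26774 CPM in PF cows, and 14760, 20232 and 14954 CPM in HS cows. The groups formed 3 separate ranges, with the PF cows between the other two groups and close to each other. The coefficient of variation was 24.6% in TN, 7.25% in PF and 18.6% in HS. The mean was 84517 ± 20782 CPM in TN, 29134 ± 2112 CPM in PF and 16649 ± 3105 CPM in HS (SD, n = 3 each). The log2 fold change of *COX1* in HS against TN was -2.36 (SE 0.71, 95% interval -3.96 to -0.77, FDR 0.396, edgeR). For PF against TN it was -1.54 (SE 0.45, 95% interval -2.51 to -0.56, FDR 0.693, edgeR), which is 2.91-fold lower in PF. HS and PF cows differed by a log2 fold change of -0.81 (SE 0.33, 95% interval -1.54 to -0.08, FDR 0.880, edgeR), which is 1.75-fold lower in HS.

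*COX2* carries the copper center that takes electrons from cytochrome c. TN cows 1 to 3 had 10966, 8504 and 13331 CPM, PF cows 5347, 4897 and 3550 CPM, and HS cows 3430, 4371 and 2902 CPM. The TN cows stood above the rest, whereas PF replicate 3 lay within the range of the HS cows. The mean was 10934 ± 2414 CPM in TN, 4598 ± 935 CPM in PF and 3567 ± 744 CPM in HS (SD, n = 3 each). The log2 fold change of *COX2* was -1.63 in HS against TN (SE 0.51, 95% interval -2.78 to -0.49, FDR 0.418, edgeR), -1.25 in PF against TN (SE 0.41, 95% interval -2.14 to -0.36, FDR 0.697, edgeR) and -0.37 in HS against PF (95% interval -1.09 to 0.35).

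*COX3* is the third mitochondrially encoded core subunit of complex IV. In TN cows 1 to 3 it had 16370, 14353 and 15959 CPM, in PF cows 5052, 9554 and 11263 CPM, and in HS cows 5569, 8142 and 6533 CPM. PF replicate 1 was the lowest of the 9 cows for *COX3*, and PF replicates 2 and 3 were above every HS cow. The spread within PF was accordingly wide, with a coefficient of variation of 37.2%, against 6.85% in TN and 19.3% in HS. The log2 fold change of *COX3* was -1.22 in HS against TN (SE 0.53, 95% interval -2.40 to -0.05, FDR 0.518, edgeR), -0.85 in PF against TN (95% interval -1.80 to 0.09) and -0.36 in HS against PF (95% interval -1.18 to 0.47). The last was -0.63 without PF replicate 1 and -0.13 without PF replicate 3.

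*ATP6*, the subunit a of ATP synthase, forms part of the proton channel. TN cows 1 to 3 had 13958, 12507 and 14598 CPM of *ATP6*, PF cows 8669, 7737 and 8296 CPM, and HS cows 6400, 7957 and 5885 CPM. HS replicate 2 lay within the range of the PF cows, and the TN cows were separate. Among the 6 genes *ATP6* had the smallest differences from TN, with a log2 fold change of -1.04 in HS (SE 0.51, 95% interval -2.19 to 0.11, FDR 0.540, edgeR) and -0.74 in PF (SE 0.38, 95% interval -1.57 to 0.10, FDR 0.709, edgeR). In HS against PF it was -0.29 (95% interval -0.97 to 0.39).

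*ATP8*, a small subunit of the membrane part of ATP synthase, had 231 to 1315 counts in each cow. Its level was 58.8, 38.6 and 50.6 CPM in TN cows 1 to 3, 34.0, 17.9 and 22.8 CPM in PF cows, and 16.7, 32.6 and 15.5 CPM in HS cows. The HS and PF cows were interleaved, and the lowest TN cow lay just above the highest PF cow. The log2 fold change of *ATP8* was -1.21 in HS against TN (SE 0.32, 95% interval -1.93 to -0.50, FDR 0.340, edgeR), -0.99 in PF against TN (SE 0.29, 95% interval -1.63 to -0.35, FDR 0.693, edgeR) and -0.21 in HS against PF (95% interval -0.95 to 0.53). Without PF replicate 1 the last value changed sign, to 0.08.

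**Figure D2:**
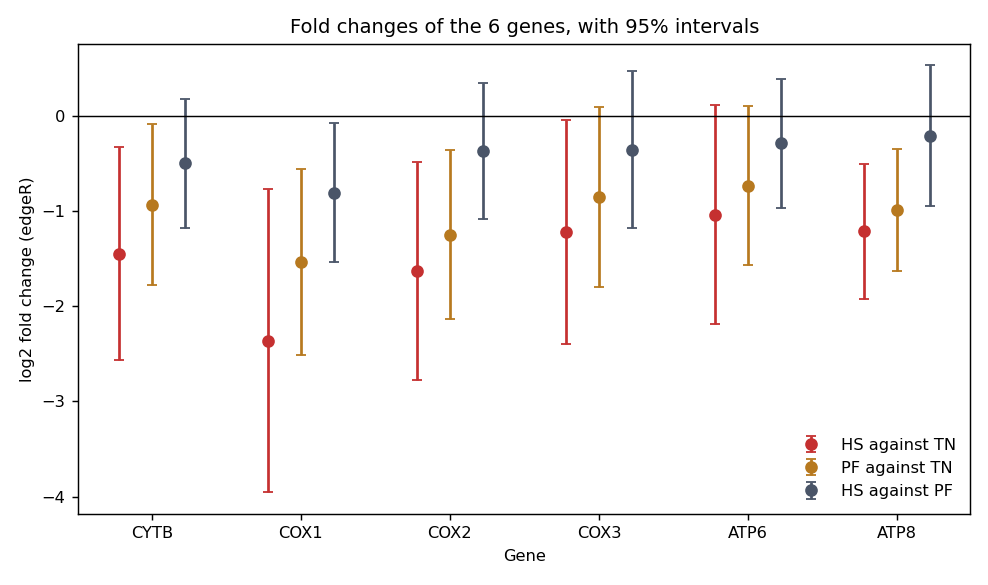
Log2 fold changes of the 6 genes from edgeR (points) with 95% intervals (bars), for HS against TN, PF against TN and HS against PF (colors), each fitted on 6 cows. The intervals of HS against TN lie below 0 for 5 genes, those of PF against TN for 4 genes, and that of HS against PF for 1 gene, *COX1*.

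A gene was called at an FDR under 0.1 with a fold change over 1.5. In HS against TN, 0 of the 6 genes were called by edgeR, where 0.0892% of the 14582 genes tested were called. All 6 were lower in HS by more than 1.5-fold, against 13.1% of all genes, and 5 of 6 were lower at an unadjusted p under 0.05, against 5.23% of all genes. The cows of the 6 genes did not overlap, whereas 7.7% of all genes were lower without overlap. Their median log2 fold change was -1.34, and that of all genes tested was -0.01. DESeq2, the tool of the study, called 6 of 6 lower, where it called 0.889% of the genes lower, with FDRs from 7.04e-13 for *COX1* to 0.0528 for *ATP8*. In bulk tissue, fewer cells of a type, or fewer mitochondria, and less RNA per cell cannot be told apart.

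In PF against TN, edgeR called 0 of the 6 genes and 0.0% of the 14580 genes tested. All 6 were lower in PF by more than 1.5-fold, against 13.4% of all genes, and 4 of 6 were lower at an unadjusted p under 0.05 (*COX1*, *ATP8*, *COX2* and *CYTB*), against 3.89%. All 6 were lower without overlap, against 6.36% of all genes. The median log2 fold change was -0.96, beside -0.01 for all genes. DESeq2 called 3 of them lower, where it called 0.347% of the genes lower, with FDRs of 6.93e-05 for *COX1*, 0.00752 for *COX2* and 0.0580 for *CYTB*. This comparison shares its TN cows with HS against TN.

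In HS against PF, edgeR called 0 of the 6 genes, where 0.0276% of the 14510 genes tested were called. *COX1* was the 1 gene lower at an unadjusted p under 0.05, against 2.25% of all genes, and the 1 gene lower by more than 1.5-fold, against 6.82%. *COX1* and *CYTB* were lower without overlap, against 4.58% of all genes. The median log2 fold change of the 6 was -0.36, beside 0.01 for all genes. DESeq2 called *COX1* with an FDR of 0.0967, where 0.31% of the genes were called lower.

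These differences from TN were of similar size without TN replicate 1. With that library set aside, *COX1* had a log2 fold change of -2.38 in HS against TN (FDR 0.388, edgeR) and of -1.57 in PF against TN (FDR 0.197, edgeR). *CYTB* was then at -1.37, *COX2* at -1.62, *COX3* at -1.17, *ATP6* at -1.01 and *ATP8* at -1.05 in HS against TN. Of the 7 other lists of cell type markers that were detected, the endothelial, stellate or fibroblast, cholangiocyte and adipocyte sums overlapped between all groups, and 3 lists did not in some comparison. The 5 erythroid markers summed to 4.08 to 23.1 CPM in TN, 0.592 to 3.06 CPM in PF and 0.875 to 2.51 CPM in HS. The hemoglobin gene *HBB* had 52 to 375 counts in TN cows, while *HBA* and *HBA1* had 0 counts there, and *AHSP*, another gene of the list, had a log2 fold change of 0.41 in HS against TN. The 5 lymphocyte markers summed to 88.5 to 107 CPM in TN and 71.6 to 84.8 CPM in HS, and the 6 macrophage markers to 1330 to 2101 CPM in HS and 883 to 1214 CPM in PF, without overlap in either case. Of the lymphocyte markers, *CD79A* and *MS4A1* had higher fitted values in HS than in TN, unlike the other 3. The part of these marker differences, and of the hepatocyte markers in PF against TN, in the values of the 6 genes was not tested.

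Of all counts, the 6 genes took 17.8%, 10.7% and 15.1% in TN cows 1 to 3, 5.13%, 5.47% and 5.71% in PF cows, and 4.08%, 4.20% and 2.98% in HS cows. The Wilson 95% intervals of these shares, which cover counting error alone, were narrow, for example 17.74% to 17.78% in TN replicate 1, so the spread between cows set the precision. The groups did not overlap. The mean share was 14.5 ± 3.58% in TN, 5.44 ± 0.292% in PF and 3.75 ± 0.672% in HS (SD, n = 3 each). *COX1* alone took 8.97 ± 2.31% in TN, 2.79 ± 0.0879% in PF and 1.64 ± 0.302% in HS. The other 5 genes together took 5.56 ± 1.42%, 2.65 ± 0.354% and 2.11 ± 0.371%, and for them the PF and HS cows overlapped. Of the difference in summed CPM of the 6 genes, *COX1* held 69.1% in HS against TN, 69.6% in PF against TN and 67.0% in HS against PF. It already made up 61.6% of the counts on the 6 genes in TN and 51.5% in PF on average. With equal fold changes of all 6 genes, its part in the difference would be near these shares.

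**Figure D3:**
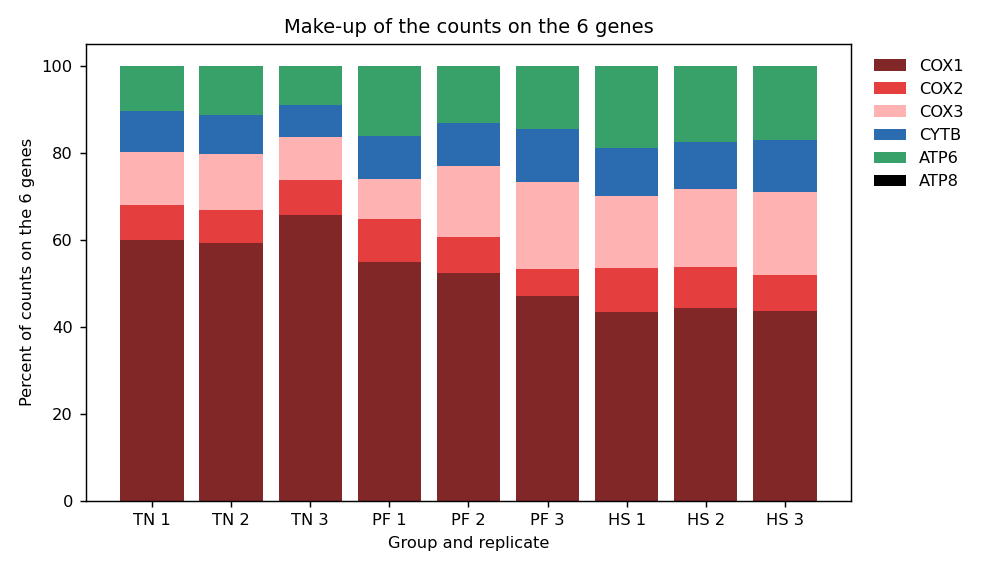
Make-up of the counts on the 6 genes in each cow, as percent (vertical axis, from 0) by group and replicate (horizontal axis), with 1 color per gene. *COX1* takes 59.3% to 65.6% in TN cows, 47.1% to 54.9% in PF cows and 43.5% to 44.2% in HS cows, while *ATP8*, below 0.1%, is too thin to be seen.

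The make-up of the counts on the 6 genes differed between groups. *COX1* took 61.6 ± 3.51% of them in TN, 51.5 ± 3.95% in PF and 43.7 ± 0.414% in HS (SD, n = 3 each), and the 3 HS cows were within 1 percentage point of each other. *ATP6* took 10.2%, 14.6% and 17.8% on average, in the opposite order, and its groups did not overlap. *COX3* took 11.6 ± 1.62% in TN, 15.1 ± 5.34% in PF and 17.7 ± 1.31% in HS, and the PF cows ranged from 9.31% to 19.8%. *CYTB* took 8.56%, 10.7% and 11.3%, and *COX2* 7.99%, 8.14% and 9.37%, with overlap between HS and PF for both.

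Ratios between 2 genes of the same library do not depend on library size or on its normalization. The RNA was poly-A enriched, and the part of the poly-A tails of each mRNA in these ratios was not tested. For every TN cow, *COX1* had more counts than the other 5 genes together, with ratios of 1.49, 1.46 and 1.91. In PF cows the ratio was 1.22, 1.10 and 0.892, and in HS cows 0.769, 0.793 and 0.772. The HS cows were nearly identical, and the 3 groups did not overlap. The mean ratio was 1.62 ± 0.253 in TN, 1.07 ± 0.165 in PF and 0.778 ± 0.0131 in HS (SD, n = 3 each). On the log2 scale the HS cows were lower by 1.05 than TN cows, and the PF cows by 0.60.

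**Figure D4:**
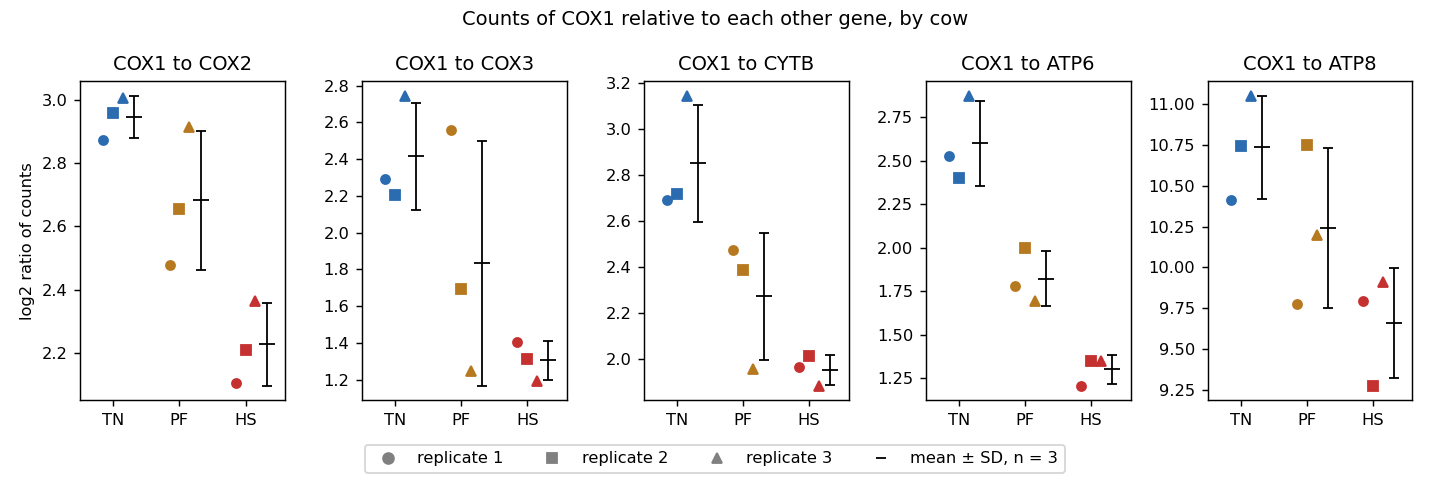
Log2 ratio of the counts on *COX1* to those on each other gene (vertical axes, which do not start at 0) in the 9 cows by group, with the mean ± SD of 3 cows in black. The HS cows lie below the TN cows in all 5 panels, and below the PF cows in the panels of *COX2* and *ATP6*.

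For the 15 ratios of 2 genes, the F statistic of the 3 groups was compared over the 280 splits of the 9 cows. This exact permutation test gave its smallest possible p, 0.0036, for *COX1* to *ATP6*. This ratio was 5.75, 5.29 and 7.34 in TN cows 1 to 3, 3.44, 3.99 and 3.23 in PF cows, and 2.31, 2.54 and 2.54 in HS cows. No cow of one group fell in the range of another. The means were 6.13 ± 1.07 in TN, 3.55 ± 0.393 in PF and 2.46 ± 0.136 in HS (SD, n = 3 each). After Benjamini-Hochberg adjustment over the 15 ratios, p was 0.0536 for *COX1* to *ATP6* and also for *COX1* to *COX2* (unadjusted p = 0.0071) and *COX1* to *CYTB* (unadjusted p = 0.0107), all by the exact permutation test. No ratio passed an adjusted 0.05.

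*COX1* to *COX2* was 7.71 ± 0.360 in TN, 6.47 ± 0.997 in PF and 4.70 ± 0.429 in HS (SD, n = 3 each). *COX1* to *CYTB* was 7.30 ± 1.35 in TN, 4.89 ± 0.887 in PF and 3.88 ± 0.172 in HS. The ratio of *COX1* to *COX3* was lower by 1.11 on the log2 scale in HS than in TN, and that to *ATP8* by 1.08. For the 3 groups together, their adjusted exact permutation p was 0.184 and 0.161. In HS against TN, 5 of 5 ratios of *COX1* did not overlap, beside 3 of the 10 ratios without *COX1*. In PF against TN it was 2 of 5 and 1 of 10, and in HS against PF 2 of 5 and 0 of 10. The ratios share genes, so they do not count as independent. Compared between 2 groups, 3 cows against 3 cannot go below an exact permutation p of 0.1.

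In HS against TN, each of the 10 ratios without *COX1* differed less than any ratio of *COX1*. Those of HS against TN without overlap were *COX2* to *ATP6* (log2 means -0.35 and -0.93 in TN and HS), *CYTB* to *ATP6* (-0.25 and -0.66) and *COX3* to *CYTB* (0.44 and 0.65). By the exact permutation test of the 3 groups, *COX2* to *ATP6* had p = 0.0464 and an adjusted p of 0.161. In PF against TN this ratio differed by -0.52 on the log2 scale, without overlap. There *COX1* to *COX2* (-0.26) and *COX1* to *ATP8* (-0.49) differed less, with overlap. The ratios of *COX1* to *COX3*, *CYTB* and *ATP6* differed more (-0.58, -0.58 and -0.78). *ATP6* to *ATP8*, which lie on the same mRNA, had log2 means of 8.13 in TN, 8.42 in PF and 8.36 in HS, with overlap of all 3 groups.

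The mitochondrial genome also encodes 7 subunits of complex I, the entry point of electrons from NADH. All 7 were lower in HS than in TN at an unadjusted p under 0.05 (edgeR), against 5.23% of all genes, with a median log2 fold change of -1.58. By edgeR 0 of them were called and by DESeq2 7, where DESeq2 called 0.889% of all genes lower. The 3 with the smallest p were *ND6* (-1.99, FDR 0.249), *ND5* (-1.64, FDR 0.332) and *ND4L* (-1.27, FDR 0.280). In HS against PF, 2 of the 7 were lower at an unadjusted p under 0.05 (edgeR), against 2.25% of all genes. These were *ND6* (-1.17, FDR 0.589) and *ND3* (-1.13, FDR 0.576), where *COX1* was at -0.81. Without overlap 4 of the 7 were lower, against 4.58% of all genes. DESeq2 called 2 of them lower and 0.31% of all genes, and edgeR called 0. *CYTB*, *COX2*, *COX3*, *ATP6* and *ATP8* together had 1.58 ± 0.0607 times the counts of the 7 complex I genes in TN, 1.44 ± 0.133 times in PF and 1.73 ± 0.190 times in HS (SD, n = 3 each), and the TN cows overlapped both other groups. The lowest HS cow (1.59) lay just above the highest PF cow (1.57). With *COX1* included the ratio was 4.14 ± 0.540 in TN, 2.97 ± 0.283 in PF and 3.08 ± 0.325 in HS, and the TN cows stood above both.

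The nuclear subunits of the same complexes had 0 called genes, and their direction in HS against TN rested in large part on TN replicate 1. Of the 9 nuclear subunits of complex III, 9 had a higher fitted value in HS than in TN and 0 were called, with a median log2 fold change of 0.30, where 49.3% of all genes were higher. Without TN replicate 1, 5 of 9 were higher, with a median of 0.06, and without HS replicate 3 also 5 of 9, with a median of 0.10. *UQCRH*, a hinge subunit near cytochrome c1, had a log2 fold change of 0.45 (FDR 0.645), *UQCR11* of 0.52 (FDR 0.654) and *CYC1*, cytochrome c1, of 0.34 (FDR 0.658, edgeR). None of the 9 had an unadjusted p under 0.05. In PF against TN 9 of 9 were higher, with a median of 0.22, and without TN replicate 1 5 of 9, with a median of 0.01.

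For complex IV, 12 of the 17 nuclear subunits listed were tested, and 10 were higher and 2 lower in HS than in TN, with 0 at an unadjusted p under 0.05 and a median of 0.39. Without TN replicate 1, 8 were higher and 4 lower, with a median of 0.08. *COX7A2L*, a factor that joins complexes III and IV, was at 0.58 (FDR 0.527), *COX6A1* at 0.59 (FDR 0.600) and *COX7A2* at 0.43 (FDR 0.648, edgeR). For complex V, 15 of 18 nuclear subunits were higher and 3 lower, with a median of 0.27. Without TN replicate 1, 10 were higher and 8 lower, with a median of 0.01, which is also that of all genes. *ATP5MC2*, a gene for the rotating c subunit, was the 1 gene of this list with an unadjusted p under 0.05, at 112 ± 11.3 CPM in HS cows and 65.5 ± 26.8 CPM in TN cows (SD, n = 3 each), without overlap. Its log2 fold change was 0.77 (SE 0.33, FDR 0.518, edgeR), and 0.47 without TN replicate 1 (SE 0.22, FDR 0.777, edgeR). The other genes of the c subunit, *ATP5MC3* and *ATP5MC1*, were at 0.64 each. DESeq2 called 0 genes of the 3 nuclear lists. In HS against PF the medians were 0.09, 0.04 and -0.05 for complexes III, IV and V.

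**Figure D5:**
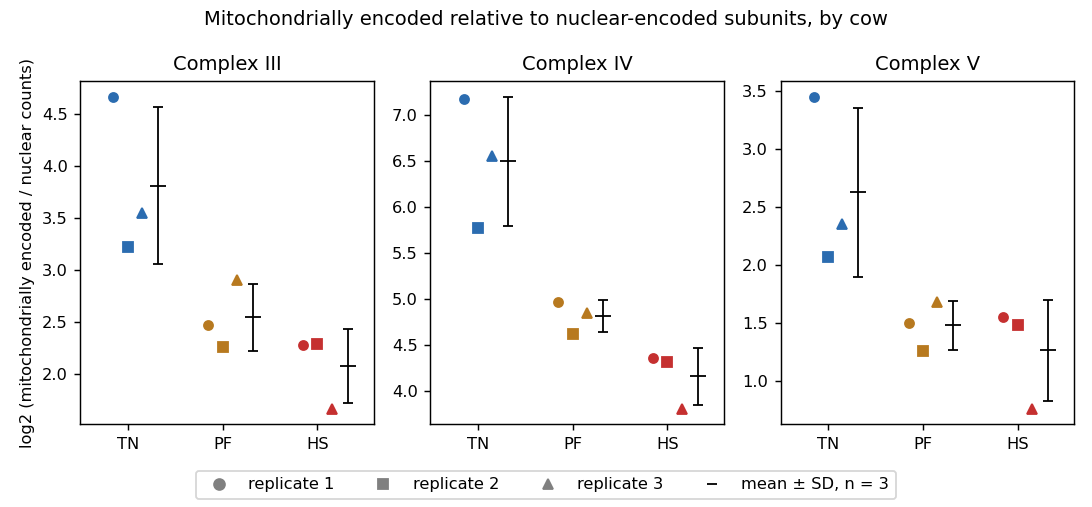
Log2 ratio of the counts on the mitochondrially encoded subunits to those on the nuclear subunits of complexes III, IV and V (vertical axes, which do not start at 0) in the 9 cows by group, with the mean ± SD of 3 cows in black. The TN cows lie above the PF and HS cows in all 3 panels, TN replicate 1 is the highest cow in each, and HS and PF cows are separate for complex IV.

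The counts on *COX1*, *COX2* and *COX3* exceeded those on the nuclear subunits of complex IV by 145, 54.7 and 94.2 times in TN cows 1 to 3, by 31.3, 24.7 and 28.9 times in PF cows, and by 20.6, 20.0 and 14.0 times in HS cows. The 3 groups did not overlap, also when TN replicate 1, the highest cow, was set aside. For complex III the ratio was 15.5 ± 8.68 in TN, 5.93 ± 1.37 in PF and 4.30 ± 0.979 in HS, and for complex V it was 6.75 ± 3.64, 2.82 ± 0.408 and 2.48 ± 0.675 (SD, n = 3 each). Without TN replicate 1 the TN cows had ratios of 9.32 and 11.7 for complex III, and of 4.20 and 5.12 for complex V. In both, the TN cows stood above the rest and the HS and PF cows overlapped. TN replicate 1 also had the lowest nuclear sums, 489 CPM for complex III, 745 CPM for complex IV and 1284 CPM for complex V, beside at least 781, 1154 and 2191 CPM in the other cows. The sum of its hepatocyte markers was the lowest as well, and their part in these ratios was not tested.

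Of the assembly factors of complexes III to V, 27 were tested, and 21 were higher and 6 lower in HS than in TN, with 0 called and a median log2 fold change of 0.16. Without TN replicate 1, 15 were higher and 12 lower, with a median of 0.07. *TMEM70*, an assembly factor of ATP synthase, was at 25.5 ± 3.88 CPM in HS cows and 17.4 ± 2.10 CPM in TN cows (SD, n = 3 each), a log2 fold change of 0.53 (SE 0.21, edgeR), and was the 1 gene of this list with an unadjusted p under 0.05. Without TN replicate 1 it was at 0.45 (SE 0.22), and 0 genes of the list had one. *COX10*, an enzyme of heme a synthesis for complex IV, was at 0.51 and *COA5*, a complex IV assembly factor, at 0.48, with FDRs of 0.561 and 0.562. Of 18 genes that process, stabilize or degrade mitochondrial RNA, 10 were higher and 8 lower, with a median of 0.06 and 0 at an unadjusted p under 0.05. The median was -0.05 when TN replicate 1 was set aside. Among these, *PDE12*, which removes poly-A tails in mitochondria, was at 2.59 ± 0.672 CPM in HS cows and 1.34 ± 0.299 CPM in TN cows (SD, n = 3 each), and the HS cows overlapped with neither TN nor PF cows. Its log2 fold change in HS against TN was 0.93 (SE 0.48, FDR 0.558, edgeR). *KIAA0391*, the symbol used in the file for the mitochondrial RNase P nuclease *PRORP*, was at 0.51, and *FASTK* at -0.40, with FDRs of 0.612 for both.

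Over the 9 cows, the mean log2 CPM of the 6 genes was compared with each of 15060 genes that the mitochondrial genome does not encode, as a description with no test. The cows share their group, and in part their depth, so that any gene that differs between TN and the other groups correlates with this mean. The highest Pearson correlations belonged to *PPP4R1*, a regulatory subunit of protein phosphatase 4 (r = 0.958), *TFEB*, a transcription factor of lysosomal genes (r = 0.957), *PHKG2*, a catalytic subunit of phosphorylase kinase in liver (r = 0.955), *LOC107132300* (r = 0.938) and *ACSM5*, a mitochondrial medium-chain acyl-CoA synthetase (r = 0.936). *ACSM5* had 60.7 to 106 CPM in TN, 37.3 to 51.4 CPM in PF and 30.6 to 42.7 CPM in HS. *TFEB* ranged from 7.47 to 8.23 CPM in TN, 6.22 to 6.42 CPM in PF and 5.43 to 6.67 CPM in HS. The lowest correlations belonged to *XRCC4*, a factor of DNA end joining (r = -0.967), *LOC101902701* (r = -0.966) and *CDK4*, a kinase of the cell cycle (r = -0.963). *CDK4* had 15.9 to 23.7 CPM in TN, 26.0 to 31.0 CPM in PF and 31.5 to 37.3 CPM in HS, so its groups did not overlap. Of the 6 genes themselves, *ATP6* followed the mean most closely (r = 0.994) and *COX3* least (r = 0.875). Each of the 6 is part of this mean, which raises its own correlation. The complex I genes of the mitochondrial genome, which are not part of it, had r from 0.781 to 0.977.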

How the data were processed

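Poly-A enriched liver RNA of 9 cows was sequenced in paired-end mode. The authors trimmed reads with fastp 0.23.2, aligned them to ARS-UCD1.2 with STAR 2.7.9a and counted them per gene with featureCounts 2.0.3. The deposited values are raw counts. The annotation release, the strand setting and the treatment of reads with several alignments are not given in the sources used here. All count columns matched a labelled cow.

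The 2 groups of a comparison (6 libraries) entered an edgeR 4.0.16 fit (R 4.3.3) with TMM, filterByExpr, a quasi-likelihood F test and Benjamini-Hochberg adjustment over all genes tested. The SE was derived from the F statistic. All 6 genes passed the filter in the 3 fits. Ratios of counts were compared by exact permutation tests, and log2 CPM had an offset of 0.5. Count totals of 16874444 to 22557047 leave counting error small for the 6 genes beside the spread between cows. The fit and the calls were also run on simulated counts, and the outcome is not given here.

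The genes and lists were chosen with earlier results of these data known. Named besides the 6 genes were, from each list, every called gene and the 3 with the smallest p in HS against TN, the 5 nuclear genes with the highest and the 3 with the lowest correlation, and markers of hepatocytes, of skeletal muscle and of lists without overlap between groups. For complex I, *ND3* was also named, for its value in HS against PF. Of the listed genes, *COX6C*, *UQCC2*, *SURF1* and *COA4* were not found by symbol. Alternatives were DESeq2 1.42.0, RLE size factors, library sizes computed without mitochondrial genes, no filter, at least 10 counts in every library, 1 fit of all 9 libraries, a block for the replicate number, a threshold of 0.05 on the FDR, glmTreat and each cow left out, which was added for the gene lists after seeing the data. For the ratio of *COX1* to the others they were medians, a geometric mean and the other 12 mitochondrial genes as denominator, and for the share the log2 ratio to genes that are not mitochondrially encoded.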

Additional observations from a re-analysis of the deposited data

How the results depend on the processing

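The number of the 6 genes called was 0 in each comparison by edgeR under every alternative run with it, and with each cow left out (0 to 0). DESeq2 was the exception, calling 6 in HS against TN, 1 in HS against PF and 3 in PF against TN; the cause was not tested. Over all genes, edgeR called 13, 4 and 0 genes in these comparisons, DESeq2 270, 122 and 91, and edgeR with no filter 124, 98 and 136. The fold change of *ATP8* in HS against PF turned from -0.21 to 0.083 without PF replicate 1, and ranged from -0.63 to 0.083 with each cow left out. No other fold change of the 6 genes, ratio or share that was recomputed changed sign. That of *COX1* in HS against TN ranged from -2.52 to -2.16 with a cow left out (FDR 0.342 to 0.863, edgeR). The log2 ratio of *COX1* to the other 5 genes kept its sign when each cow was left out (-1.12 to -0.92 in HS against TN, -0.57 to -0.35 in HS against PF, -0.70 to -0.48 in PF against TN), as did the difference in share (-12.7 to -9.15, -1.91 to -1.29 and -11.0 to -7.47 percentage points). Leaving out each cow was also applied to the lists of related genes in HS against TN, chosen after seeing the data. The median log2 fold change of the nuclear subunits then ranged from 0.06 to 0.44 for complex III, 0.08 to 0.51 for complex IV and 0.01 to 0.45 for complex V, lowest without TN replicate 1 and highest without TN replicate 2. For the assembly factors it ranged from 0.07 to 0.35, for the mitochondrial RNA genes from -0.050 to 0.17, where it turned negative without TN replicate 1 or HS replicate 3, and for the complex I genes from -1.70 to -1.36.

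The labels do not say whether a shared replicate number marks paired cows. Deviations of same-numbered cows from their group means correlated between -0.22 and 0.24, which with 3 cows a group cannot decide it. With the replicate number as a block, 0 of the 6 genes were called in each comparison, and 33, 6 and 1 of all genes. With 3 cows a group, the 95% interval of *COX1* in HS against TN spanned -3.96 to -0.77. Counting error was small beside the spread between cows, but the width also depended on the fit. The SE was 0.71 in the main edgeR fit and 0.48 in 1 edgeR fit of all 9 libraries. The part of the spread between the cows in this width was not tested.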
